A study of Homo sapiens with 10 samples.

Results

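The high mobility group (HMG) genes HMGA1, HMGA2, HMGB1, HMGB2, HMGB3 and HMGN1 to HMGN5 were examined in HeyA8, an established cell line derived from human ovarian cancer, after transfection with siRNA duplexes at 10 nM. The 10 genes were selected by their symbols, out of 58395 genes in the count tables, and all 10 had enough counts to be tested. The list was drawn up with earlier results of these libraries known, and the counts of the 5 groups were the values in view, so the differences below are given as descriptions with their standard errors and no p-values. HMGA1 was in addition picked by the study itself, as a gene with a seed match that was lower at 24 h. The study also reported its silencing by quantitative PCR. It tested an siRNA pool against HMGA1 for cell viability, and included HMGA1 among the targets measured in a pull-down of biotinylated siGGGGGC. Those experiments are not part of the data used here. Duplicate libraries were labelled for each of 5 groups, 10 in all. Cells received siNT1, the non-targeting control duplex (siNT1 S2'OM in the labels), for 24 h or 48 h, siGGGGGC (siMxy in the labels) for 24 h or 48 h, or siGGCAGU (si34a in the labels) for 48 h. Both 48 h comparisons share the same siNT1 libraries. All duplexes had a 2′-O-methyl modified passenger strand, which hinders its loading, and each library came from its own well of a transfection, so the spread between duplicates is that of wells and libraries.

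HMG proteins are abundant architectural proteins of chromatin. HMGA proteins bind the minor groove of AT-rich DNA through AT-hooks and are high in embryonic cells and in many carcinomas. HMGB proteins bend DNA with HMG-box domains and loosen nucleosomes, and HMGB1 is also released from damaged cells as an alarmin, a protein that signals injury to the immune system. HMGN proteins bind nucleosomes and counteract linker histones, which compact the chromatin fibre.

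A guide strand pairs with messenger RNAs through its seed, positions 2 to 7, mostly in the 3′ untranslated region (UTR), as a microRNA does. siGGGGGC and siGGCAGU are named after these bases. The mature microRNAs below, from RefSeq on hg38, share them, and are shown as an example of a natural guide for each seed. The siGGGGGC seed is also that of hsa-miR-4488. The siGGCAGU seed is also that of hsa-miR-449a, hsa-miR-449b-5p and hsa-miR-548au-3p. Capitals mark positions 2 to 8 of the microRNA, of which the duplexes share 2 to 7.
hsa-miR-1237-5p, siGGGGGC seed, chr11:64368651-64368671, plus strand: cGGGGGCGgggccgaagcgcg
hsa-miR-34a-5p, siGGCAGU seed, chr1:9151735-9151756, minus strand: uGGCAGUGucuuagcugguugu

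To determine which HMG transcripts hold matches to the duplexes, the longest annotated 3′ UTR of each gene (GENCODE v44, hg38) was searched on the transcript strand for the reverse complement of each seed. The word for siGGGGGC is GCCCCC. It was present in the 3′ UTR of 1 of the 10 genes, HMGA1, in 5 copies within 1347 bases. Of 19245 protein-coding genes, 30.2% held it at least once. Among 2441 genes whose 3′ UTR was within 20% of the HMGA1 length it was 32.7%. Of the protein-coding genes tested, 209 (1.69%) had 5 or more copies. The HMGA1 matches, on the plus strand, are shown with 12 bases on either side and the word in capitals. Matches 1 and 2 are followed by A (7mer-A1 type), match 5 also pairs with position 8 of the guide (7mer-m8 type), and matches 3 and 4 have neither (6mer type).
HMGA1 match 1, chr6:34244948-34244977: tccgctcccaccGCCCCCaccccttcccca
HMGA1 match 2, chr6:34245399-34245428: aggggggtgctgGCCCCCaggattccccca
HMGA1 match 3, chr6:34245496-34245525: ctaggttggacaGCCCCCttcggttacagg
HMGA1 match 4, chr6:34245560-34245589: actgtggccacaGCCCCCttgccctccgcc
HMGA1 match 5, chr6:34245791-34245820: ctgctcctccctGCCCCCcaaggttctggt

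HMGA1 was also the gene of the family with a match to the seed of the control duplex, 1 copy of CGACTA, a word that 2.74% of protein-coding genes hold. The word for siGGCAGU is ACTGCC. It was found in the longest 3′ UTR of 5 of the 10 genes: 3 copies in HMGB1, 2 in HMGN4, 2 in HMGA2 and 1 each in HMGA1 and HMGN5. Of protein-coding genes 32.6% held it, a share that does not allow for 3′ UTR length. Among genes of similar 3′ UTR length the share was 77.02% for HMGA2, 63.75% for HMGB1 and 32.2% for HMGN4. It was 31.22% for HMGA1 and 27.42% for HMGN5. For the genes without the word it lay between 20.63% (HMGN3) and 48.83% (HMGB3). The copies of HMGA2 lie in the 7421-base 3′ UTR of a transcript that ends in another last exon than the canonical transcript, whose 2999 bases hold 0 copies. HMGB2, HMGB3, HMGN1, HMGN2 and HMGN3 had 0 copies of all 3 words in the 3′ UTR. In the 5′ UTR, HMGN1 had 1 copy of GCCCCC, and HMGN5 and the canonical transcript of HMGA2 had 1 copy of ACTGCC each. The coding sequences of the transcripts searched held none of the words. A match is a description of these letters and does not show that a guide binds there. The ACTGCC matches of HMGB1, HMGN4 and HMGA2 and the control match of HMGA1 are printed because the results for siGGCAGU and for the siNT1 reference can be read beside them.
HMGB1 match 1, chr13:30460404-30460433, minus strand: ttaaaatacaagACTGCCatattaaatttt
HMGB1 match 2, chr13:30458705-30458734, minus strand: catgtaacacaaACTGCCattcaacaggta
HMGB1 match 3, chr13:30458274-30458303, minus strand: aaatacatgggtACTGCCttgcttgacatc
HMGN4 match 1, chr6:26546281-26546310, plus strand: aatatattctttACTGCCttgtggaaattt
HMGN4 match 2, chr6:26546454-26546483, plus strand: gtgatttgtaacACTGCCtctttcataaat
HMGA2 match 1, chr12:65954470-65954499, plus strand: aagtatcctcatACTGCCcaatgctgaagt
HMGA2 match 2, chr12:65956166-65956195, plus strand: ataatgatttatACTGCCtaagtcacaaag
HMGA1 match to siNT1, chr6:34246008-34246037, plus strand: aggctgggtgacCGACTAccccagtcccag

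**Figure D1:**
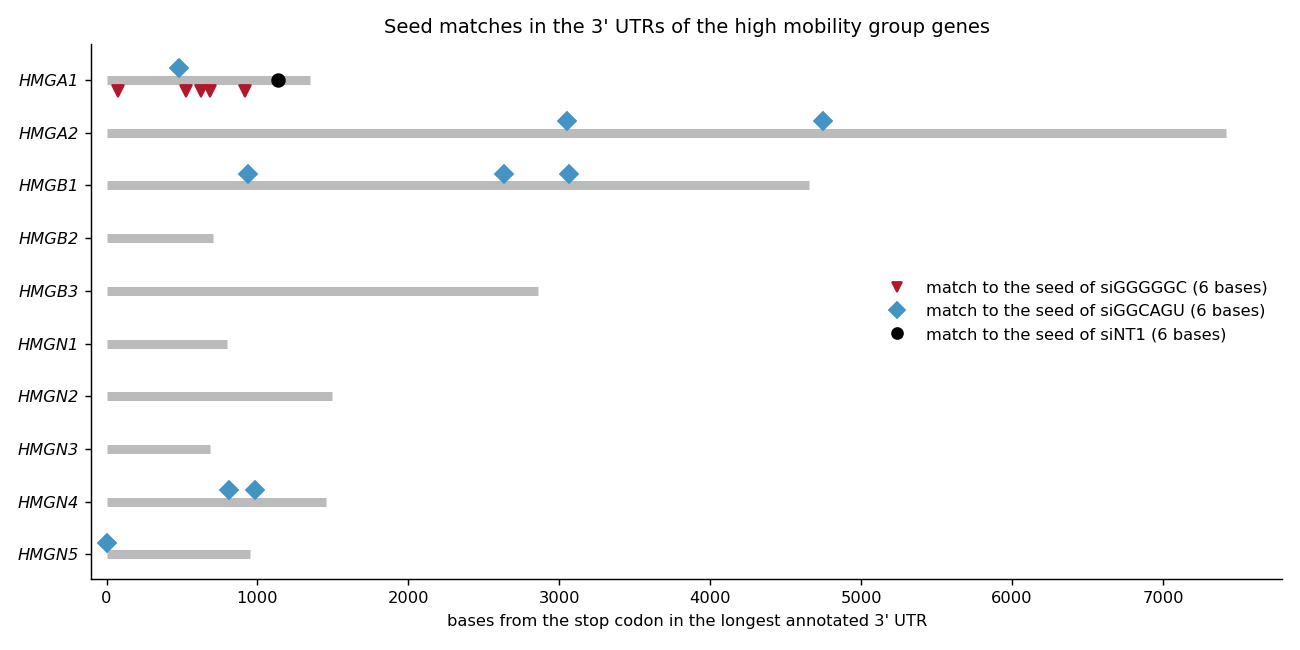
Longest annotated 3′ UTR of each of the 10 genes (grey bar; x axis, bases from the stop codon) with the 6-base matches to the seeds of siGGGGGC (red triangles), siGGCAGU (blue diamonds) and siNT1 (black circle). The 5 matches to siGGGGGC all lie in HMGA1.

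The libraries held between 19781445 and 42428986 counts. The small RNA genes RN7SL2 and SNORD3A took 19.8% to 32.0% of them. Keratin genes KRT7, KRT8 and KRT18 and the mesenchymal gene VIM had median normalised counts of 4451, 7041, 6955 and 30256, while the epithelial markers EPCAM, CDH1 and MUC16 stayed at or below 40.6. PAX8, WT1 and MSLN had medians of 487, 83.4 and 71.3, and FN1 and CDH2 of 4959 and 1694. The blood, endothelial and liver genes PTPRC, CD3E, PECAM1, VWF and ALB were at or below 19.1 in every library. Of the 18 markers listed 11 were tested, and with siGGGGGC at 48 h 9 of them fell, with a median log2 fold change of -1.38. With siGGGGGC at 24 h 2 rose and 4 fell, and with siGGCAGU 4 rose and 3 fell. The part of these markers in the HMG values was not tested. Values are normalised counts, that is raw counts scaled to a common library size. A difference passed where its adjusted p over the 16905 genes tested was below 0.05, and passed the fold threshold where the log2 fold change was also beyond 1.

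**Figure D2:**
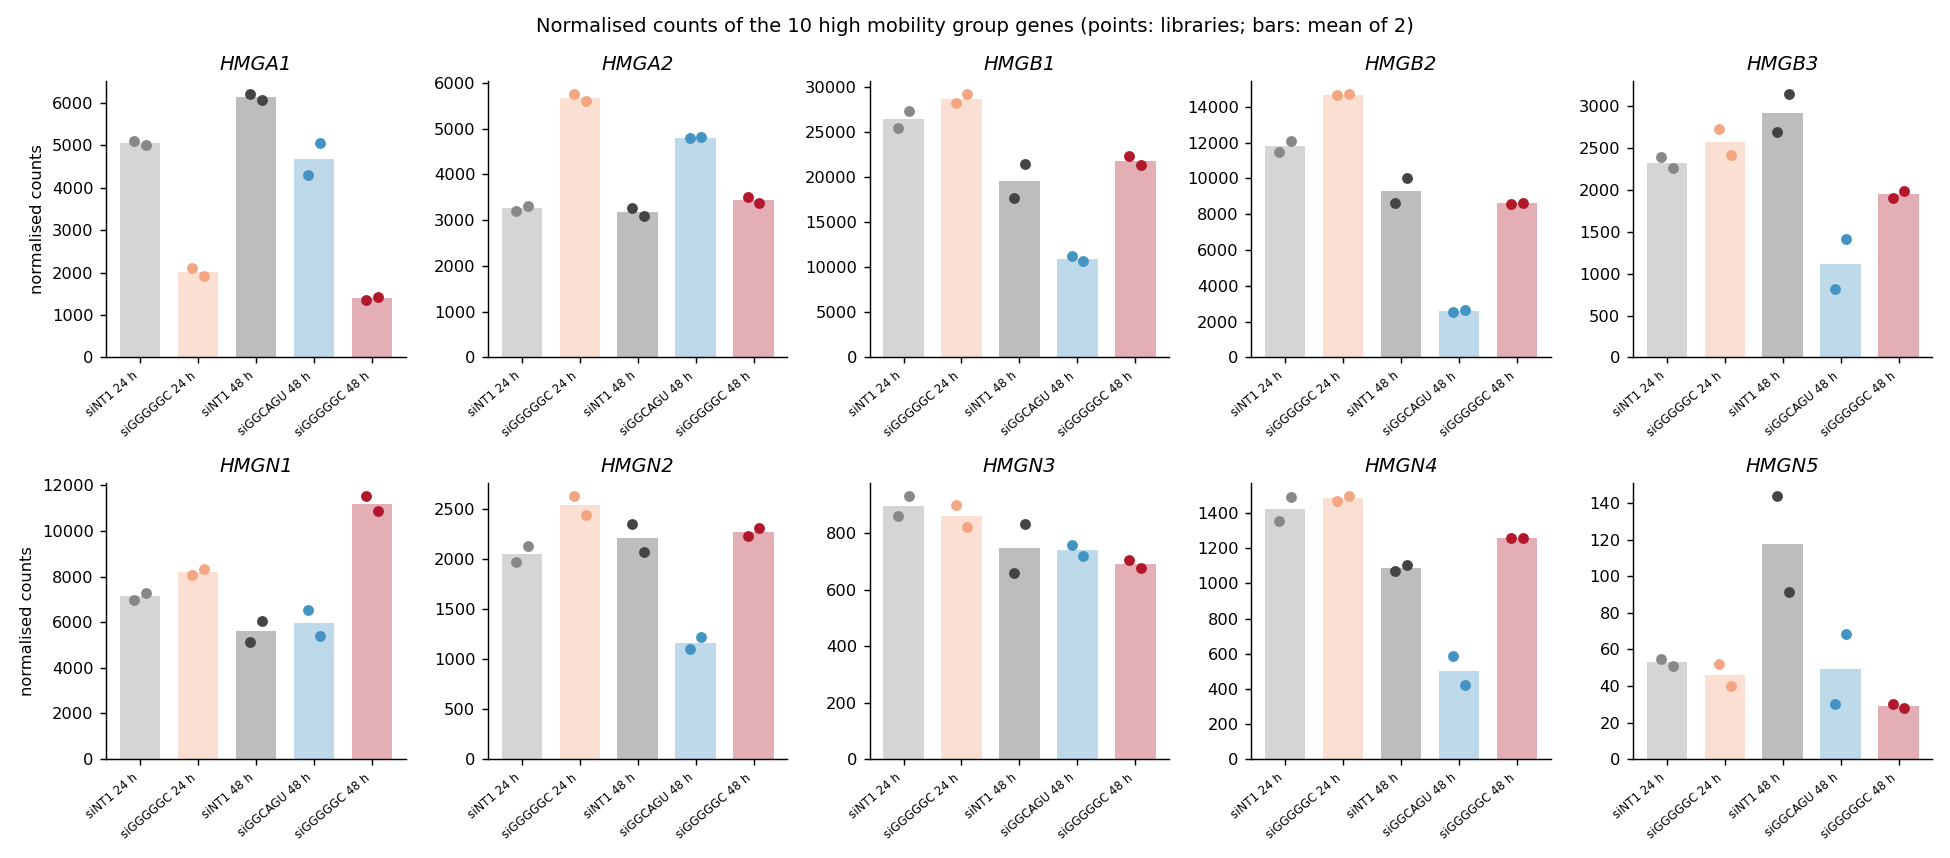
Normalised counts (linear y axes from 0) of the 10 genes in the 5 groups, with points for the 2 libraries and bars for their mean. HMGA1 is lowest in the 4 siGGGGGC libraries, and HMGB2 is lowest in the 2 siGGCAGU libraries.

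HMGA1 (ENSG00000137309, chr6:34236873-34246231, plus strand) and HMGA2 (ENSG00000149948, chr12:65824460-65966291, plus strand) moved apart with siGGGGGC. At 24 h HMGA1 had 5096 and 4994 normalised counts with siNT1, and 2116 and 1926 with siGGGGGC. At 48 h it had 6202 and 6058 with siNT1, 1363 and 1428 with siGGGGGC, and 4292 and 5051 with siGGCAGU. All 4 siGGGGGC libraries lay below every other library, with no overlap. The log2 fold change of siGGGGGC against siNT1 was -1.32 at 24 h (standard error 0.0958) and -2.14 at 48 h (standard error 0.0975), a level 2.5-fold and 4.39-fold lower. With siGGCAGU the log2 fold change was -0.39 (standard error 0.0924). The effect of siGGGGGC at 48 h was lower than that at 24 h by -0.82 on the log2 scale (standard error 0.134). In these comparisons the siNT1 libraries are the reference for a transcript that itself holds a match to the siNT1 seed, and no library without a duplex was used here.

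The HMGA1 differences can be set beside those of other genes by the number of GCCCCC copies. At 24 h the median log2 fold change was 0.040 for tested genes with 0 copies and -0.15 for those with 5 or more, with quartiles of -0.58 and 0.20 in the latter. At 48 h the medians were 0.073 and -0.38, with quartiles of -1.01 and 0.24. HMGA1 lay below the lower quartile of genes with 5 or more copies at both times. Since the study chose HMGA1 for its match and its lower level at 24 h, that position is a description.

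HMGA2 is known as a target of the let-7 microRNAs, which lower it in differentiated cells. At 24 h it had 3204 and 3311 normalised counts with siNT1 and 5754 and 5607 with siGGGGGC. At 48 h there were 3265 and 3098 with siNT1, 3499 and 3369 with siGGGGGC, and 4797 and 4813 with siGGCAGU. The libraries of siGGGGGC at 24 h and of siGGCAGU at 48 h were thus above all others, and these groups did not overlap with their controls. HMGA2 rose by a log2 fold change of 0.80 with siGGGGGC at 24 h (standard error 0.0813) and of 0.60 with siGGCAGU at 48 h (standard error 0.0804). With siGGGGGC at 48 h the log2 fold change was 0.11 (standard error 0.0805) and did not pass. The siGGGGGC effect at 48 h was lower than at 24 h by -0.69 (standard error 0.114), a difference that passed. The antisense gene HMGA2-AS1 had 64 to 506 raw counts in a library. Whether the counting used strand is not stated, so reads of overlapping antisense genes cannot be told apart from those of HMGA2.

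HMGB1, HMGB2 and HMGB3 all fell with siGGCAGU, whereas with siGGGGGC at 48 h HMGB3 alone of the 3 passed. HMGB2 (ENSG00000164104, chr4:173331376-173334432, minus strand) is an HMG-box protein that is abundant in proliferating cells. At 24 h it had 11480 and 12118 normalised counts with siNT1 and 14644 and 14711 with siGGGGGC. At 48 h it had 8608 and 10033 with siNT1, 2524 and 2631 with siGGCAGU, and 8560 and 8646 with siGGGGGC. The siGGCAGU libraries were below every other library, and the siGGGGGC libraries overlapped with siNT1 at 48 h. HMGB2 fell by a log2 fold change of -1.85 with siGGCAGU (standard error 0.0953), a level 3.62-fold lower, and its 3′ UTR of 704 bases has no match to the seed. At 24 h it rose with siGGGGGC by 0.32 (standard error 0.0917), a call lost without any 1 library of that time, and at 48 h its log2 fold change was -0.12 (standard error 0.0916) and did not pass.

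HMGB1 (ENSG00000189403, chr13:30456704-30617597, minus strand) had 25412 and 27317 normalised counts with siNT1 and 28153 and 29162 with siGGGGGC at 24 h. At 48 h the counts were 17693 and 21458 with siNT1, 11213 and 10690 with siGGCAGU, and 22269 and 21305 with siGGGGGC. The libraries of siGGCAGU were the lowest, and those of siGGGGGC overlapped with siNT1. HMGB1 fell by -0.84 on the log2 scale with siGGCAGU (standard error 0.103). With siGGGGGC the log2 fold changes of 0.12 at 24 h and 0.15 at 48 h, each with a standard error of 0.103, did not pass. Tested genes with 3 or more ACTGCC copies, as HMGB1 has, had a median log2 fold change of -0.13 with siGGCAGU. Their quartiles were -0.63 and 0.32 (585 genes), and the median with 0 copies was 0.076. For 2 copies, as in HMGA2 (0.60) and HMGN4 (-1.13), the median was -0.067, with quartiles of -0.62 and 0.39. For 1 copy, as in HMGA1 (-0.39) and HMGN5 (-1.15), it was -0.017, with quartiles of -0.49 and 0.45.

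HMGB3 (ENSG00000029993, chrX:150980509-150990771, plus strand), known from haematopoietic progenitors, had 2692 and 3143 normalised counts with siNT1 at 48 h. There were 817 and 1416 with siGGCAGU and 1909 and 1982 with siGGGGGC, and both groups lay below their control. HMGB3 fell by -1.37 with siGGCAGU (standard error 0.17) and by -0.59 with siGGGGGC (standard error 0.166), on the log2 scale. The siGGCAGU libraries differed from each other by more than those of other groups. The fall with siGGGGGC no longer passed without siNT1 replicate 2 (-0.48), without siGGGGGC replicate 1 (-0.57) or with the Wald test of DESeq2 (-0.58). At 24 h the siNT1 libraries had 2389 and 2261 and the siGGGGGC libraries 2730 and 2417 normalised counts, a log2 fold change of 0.15 (standard error 0.168) that did not pass.

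**Figure D3:**
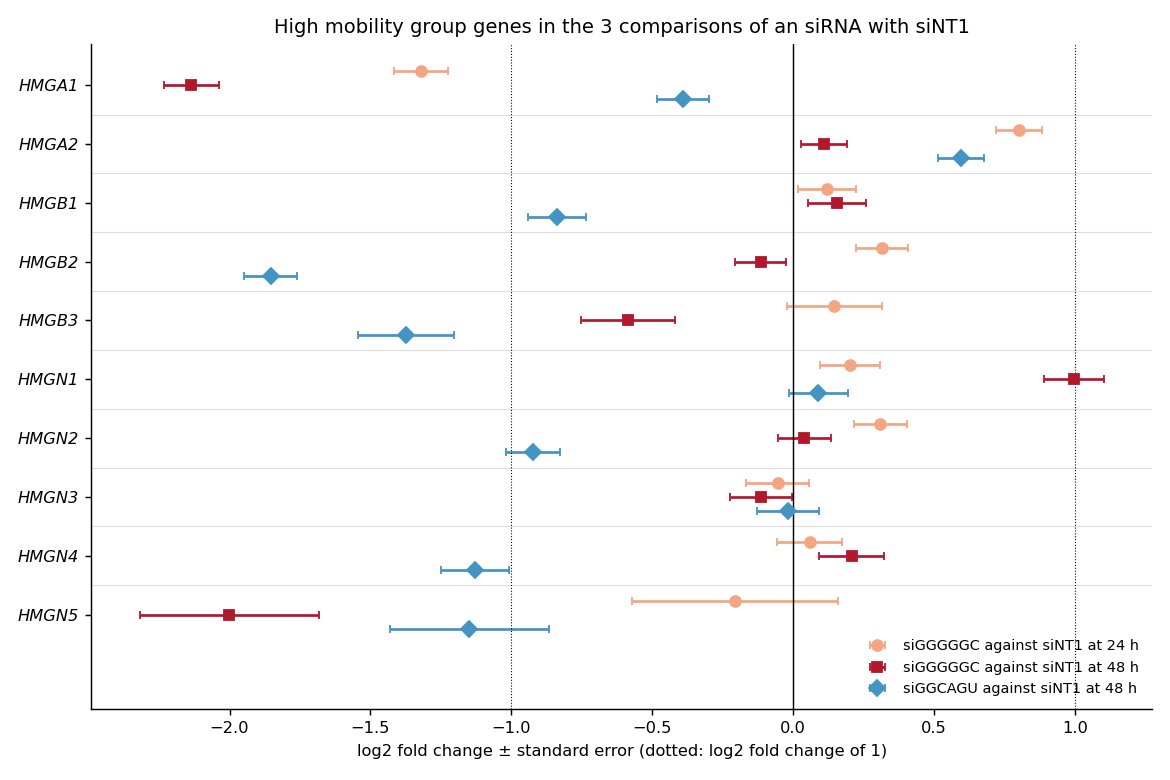
Log2 fold change with its standard error (x axis) of each of the 10 genes in the comparisons of siGGGGGC with siNT1 at 24 h and 48 h and of siGGCAGU with siNT1 at 48 h. HMGA1 lies at -1.32, -2.14 and -0.39, and HMGB2 at 0.32, -0.12 and -1.85.

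Of the HMGN genes, HMGN1 was higher with siGGGGGC at 48 h, HMGN2 and HMGN4 were lower with siGGCAGU, and HMGN3 passed in no comparison. HMGN1 (ENSG00000205581, chr21:39342315-39349647, minus strand) had 6981 and 7299 normalised counts with siNT1 and 8068 and 8349 with siGGGGGC at 24 h. At 48 h it had 5151 and 6064 with siNT1, 6522 and 5415 with siGGCAGU, and 11535 and 10865 with siGGGGGC. The siGGGGGC libraries at 48 h were above all others, and those of siGGCAGU overlapped with siNT1. HMGN1 rose by 1.00 on the log2 scale with siGGGGGC at 48 h (standard error 0.106), 2.0-fold, just inside the fold threshold and so not past it. With RLE size factors or DESeq2 the log2 fold change was 1.01 and past it, and the number of HMG genes higher by that threshold would then be 1. The log2 fold change was 0.20 at 24 h (standard error 0.105), which did not pass, and the effect at 48 h was higher by 0.80 (standard error 0.149), which did. With siGGCAGU it was 0.089 (standard error 0.105).

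HMGN2 (ENSG00000198830, chr1:26472440-26476642, plus strand), with HMGN1 one of the widely expressed nucleosome-binding proteins of the family, had 2353 and 2066 normalised counts with siNT1 at 48 h. It had 1101 and 1224 with siGGCAGU and 2233 and 2307 with siGGGGGC, so that siGGCAGU lay below and siGGGGGC within the range of the control. HMGN2 fell by -0.92 with siGGCAGU (standard error 0.095) on the log2 scale. At 24 h the counts were 1969 and 2130 with siNT1 and 2632 and 2445 with siGGGGGC, a rise of 0.31 (standard error 0.0945), a call that was lost with the replicate number as a block and without any 1 library of that time. At 48 h with siGGGGGC the log2 fold change was 0.040 (standard error 0.093) and did not pass.

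HMGN4 (ENSG00000182952, chr6:26538366-26546933, plus strand) is a gene that arose from an HMGN2 copy. At 48 h it had 1073 and 1105 normalised counts with siNT1, 585 and 422 with siGGCAGU, and 1259 and 1256 with siGGGGGC. The groups did not overlap. HMGN4 fell by -1.13 with siGGCAGU (standard error 0.12), and its log2 fold change with siGGGGGC was 0.21 at 48 h (standard error 0.114) and 0.059 at 24 h (standard error 0.116), neither of which passed.

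HMGN3 (ENSG00000118418, chr6:79201245-79234689, minus strand) and HMGN5 (ENSG00000198157, chrX:81113699-81201913, minus strand) differed in how they moved. HMGN3 ranged from 658 to 932 normalised counts over the 10 libraries, and its log2 fold changes against siNT1 were -0.056 and -0.11 with siGGGGGC at 24 h and 48 h and -0.018 with siGGCAGU, none of which passed. HMGN5 had 54.9 and 51.1 normalised counts with siNT1 and 52.0 and 40.04 with siGGGGGC at 24 h. At 48 h it had 144 and 91.7 with siNT1, 30.1 and 68.4 with siGGCAGU, and 30.2 and 28.0 with siGGGGGC. The control itself was higher at 48 h than at 24 h, and the siGGGGGC libraries at 48 h were below all others but 1, the first siGGCAGU library, which they overlapped. HMGN5 fell by -2.001 with siGGGGGC at 48 h (standard error 0.318) and by -1.15 with siGGCAGU (standard error 0.281). Its raw counts were between 23 and 186, so its values are the least precise of the family. Leaving out the first siGGCAGU library gave -0.77 and leaving out the second -1.95.

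To compare levels between genes, normalised counts were divided by the length of the canonical transcript in kilobases. On this scale HMGB2 was the highest of the 10 with siNT1 at 24 h, at 8188 ± 313 counts per kilobase (SD, n = 2), followed by HMGN1 (5618 ± 177), HMGB1 (4832 ± 247) and HMGA1 (2627 ± 37.5). Below them came HMGN2 (1057 ± 58.8), HMGN3 (936 ± 53.0), HMGA2 (791 ± 18.4), HMGN4 (734 ± 49.0), HMGB3 (663 ± 25.8) and HMGN5 (25.2 ± 1.29). Each differed from its neighbour in this order by more than the larger of their SDs. With siGGGGGC at 24 h HMGB2 (10186 ± 33.2), HMGN1 (6459 ± 156) and HMGB1 (5253 ± 131) kept the first places, and HMGA2 (1380 ± 25.3) was above HMGA1 (1053 ± 70.0). With siNT1 at 48 h the order of the first 4 was the same, at 6468 ± 699, 4412 ± 508, 3588 ± 488 and 3193 ± 53.3, and HMGB1 and HMGA1 differed by less than the SD of HMGB1. With siGGCAGU the highest was HMGN1 at 4696 ± 616, followed by HMGA1 (2433 ± 280), HMGB1 (2007 ± 67.8) and HMGB2 (1789 ± 52.4). With siGGGGGC at 48 h HMGN1 (8812 ± 373) was above HMGB2 (5970 ± 42.1) and HMGB1 (3993 ± 125), and HMGA1 (727 ± 24.1) and HMGN3 (721 ± 23.1) differed by less than their SDs. HMGN5 was lowest in all 5 groups. The order depends on the length used. With all annotated exons HMGB2 was highest in every group but siGGCAGU, where HMGA1 was, and HMGA1 was above HMGA2 in all 5 groups.

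The make-up of the family by its 3 subfamilies differed between the groups at 48 h. The HMGB genes took 53.5% and 53.9% of the summed counts per kilobase with siNT1 at 24 h and 57.5% and 57.8% with siGGGGGC. At 48 h they took 48.5% and 51.2% with siNT1, 28.4% and 30.2% with siGGCAGU, and 44.5% and 45.3% with siGGGGGC. The HMGN share was 31.9% and 31.8% with siNT1 at 48 h, 47.8% and 42.4% with siGGCAGU, and 49.0% and 48.0% with siGGGGGC. The share of HMGA genes at 48 h was 19.6% and 17.0% with siNT1, 23.9% and 27.4% with siGGCAGU, and 6.57% and 6.75% with siGGGGGC. The summed counts per kilobase at 48 h were 20581 and 23018 with siNT1 and 14248 and 13880 with siGGCAGU. With siGGGGGC they were 23752 and 23133. The higher HMGA and HMGN shares with siGGCAGU are thus shares of a lower sum, and do not by themselves show higher levels. The HMGA1 to HMGA2 ratio per kilobase was 3.41 and 3.23 with siNT1 and 0.789 and 0.737 with siGGGGGC at 24 h. At 48 h the ratio was 4.07 and 4.19 with siNT1, 1.92 and 2.25 with siGGCAGU, and 0.835 and 0.909 with siGGGGGC. The fold between libraries in this ratio does not depend on the transcript lengths, but the ratio and the shares do. With the length of all annotated exons, an alternative chosen after seeing the data, the ratio was 2.23 to 2.75 in the siGGGGGC libraries and 9.77 to 12.7 with siNT1. With these lengths the HMGB share at 48 h was 53.4% and 57.0% with siNT1 and 58.3% and 58.6% with siGGGGGC, so the direction of that difference turned. The HMGN share at 48 h was 23.15% and 22.46% with siNT1 and 34.9% and 34.3% with siGGGGGC, so that difference kept its direction. The HMGB share with siGGCAGU, 36.8% and 37.6%, was still below that of siNT1.

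**Figure D4:**
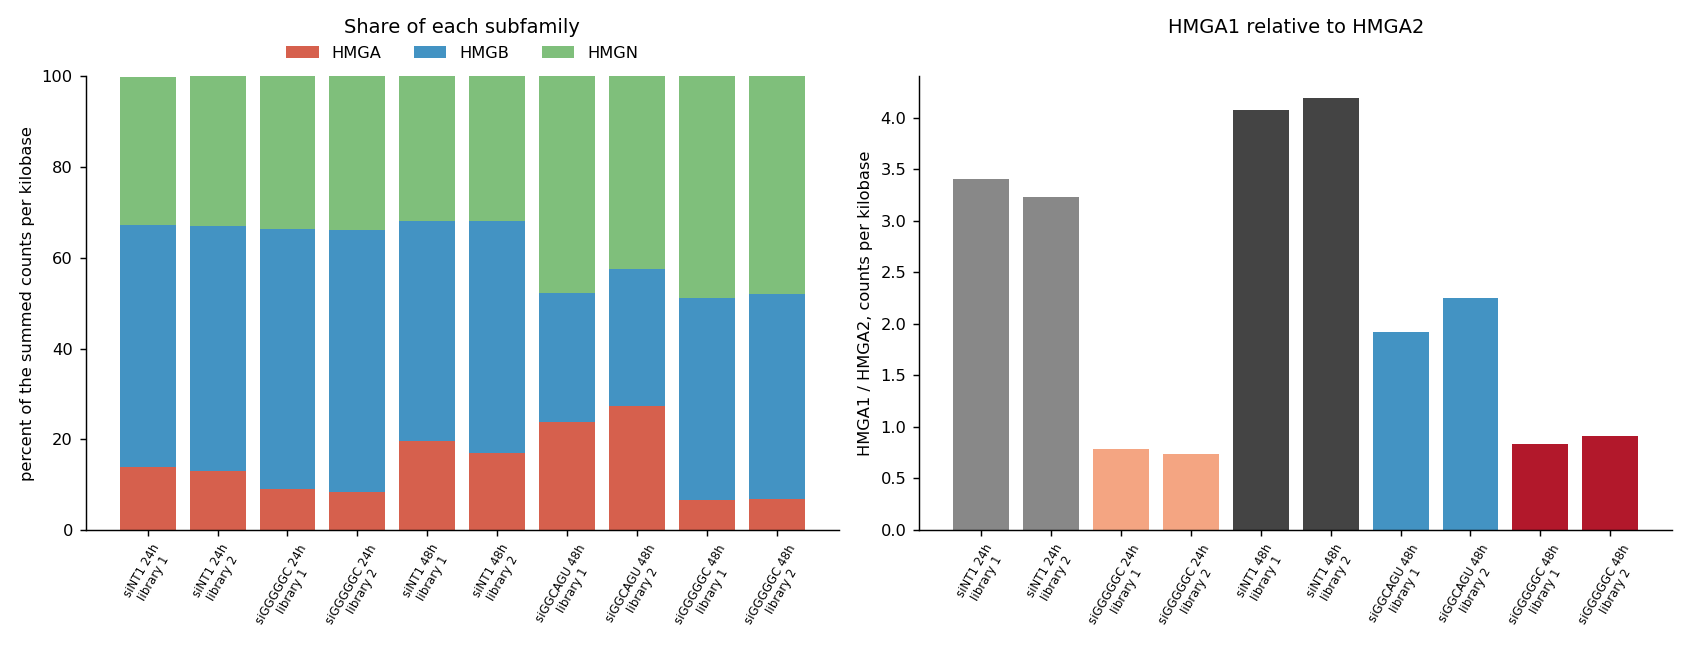
Left, share of the HMGA, HMGB and HMGN genes in the summed counts per kilobase of each library (y axis, percent), and right, the ratio of HMGA1 to HMGA2 counts per kilobase. The HMGB share is 28.4% and 30.2% in the siGGCAGU libraries, and the ratio by canonical transcript length is below 0.91 in all 4 siGGGGGC libraries, a level that depends on the lengths used.

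Counts over the family are set beside the share of all tested genes that passed. With siGGGGGC at 24 h, HMGA2, HMGB2 and HMGN2 were higher and HMGA1 lower, 3 and 1 of 10, where 10.6% of all genes were higher and 8.32% lower. Past the fold threshold were 0 higher and 1 lower, against 1.55% and 2.17% of all genes. Without any 1 of the 4 libraries at 24 h, 2 of these 4 genes passed, HMGA1 and HMGA2. With siGGGGGC at 48 h 1 was higher and 3 lower (27.8% and 27.5% of all genes), of which 0 and 2 were past the fold threshold (10.5% and 11%). With siGGCAGU 1 was higher and 7 lower (27.8% and 24.9% of all genes), of which 0 and 4 were past the fold threshold (10.7% and 9.62%). The median log2 fold change of the 10 genes was 0.13, -0.037 and -0.88 in these comparisons, and that of all genes 0.0035, -0.011 and 0.024. As the genes were listed with these values known, the counts are given with no inference.

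Set directly against siGGCAGU at 48 h, siGGGGGC had 6 of the 10 genes higher and 2 lower, where 26.7% and 27.6% of all genes were. The genes higher with siGGGGGC were HMGB2 (log2 difference 1.74, standard error 0.0951), HMGN4 (1.34), HMGB1 (0.99), HMGN2 (0.96), HMGN1 (0.91) and HMGB3 (0.79), and those lower were HMGA1 (-1.74, standard error 0.0968) and HMGA2 (-0.48). The HMGB3 value was 0.46 without the first and 1.25 without the second siGGCAGU library. HMGN3 (-0.096) and HMGN5 (-0.85) did not pass, and without the first or the second siGGCAGU library HMGN5 had -1.24, which passed, or -0.057. The siGGGGGC effect differed between 48 h and 24 h in 6 of the 10 genes, 1 higher (13.4% of all genes) and 5 lower (15.2%). HMGN1 was the higher one and HMGA1, HMGA2, HMGB2, HMGB3 and HMGN5 the lower ones. Between 24 h and 48 h of siNT1, HMGA1 and HMGN5 were higher and HMGB1, HMGB2, HMGN1 and HMGN4 lower, 2 and 4 of 10, where 9.37% and 7.2% of all genes were. HMGN5 had the widest change there (1.13, standard error 0.295), and without 24 h replicate 1, 24 h replicate 2 or 48 h replicate 1 of siNT1 the number that passed was 0.

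Cell cycle genes were read beside the family, since HMGB2 is known to be high in dividing cells. With siGGCAGU all 10 S phase genes and all 10 G2 and M phase genes listed fell, with medians of -2.05 and -1.74 on the log2 scale, among them MCM3 (-3.19), MCM2 (-2.73), MKI67 (-2.52) and CCNA2 (-2.43), which serve DNA replication and mitosis. The summed level of the S phase genes was 32710 and 32213 normalised counts with siNT1 at 48 h, 9368 and 8653 with siGGCAGU and 22186 and 23101 with siGGGGGC. The sum of the G2 and M phase genes was 41111 and 42287, 12875 and 11917, and 29013 and 28623 in the same groups. Of all genes 24.9% fell with siGGCAGU. Both sums were lowest in the siGGCAGU libraries, as HMGB1, HMGB2, HMGB3, HMGN2 and HMGN4 were. With siGGGGGC at 48 h 6 S phase genes fell and CDC6 rose, and 8 G2 and M phase genes fell, AURKB by -1.80 and MCM3 by -0.95, while HMGB2 and HMGN2 did not pass. At 24 h with siGGGGGC 5 S phase and 6 G2 and M phase genes rose, such as RRM2 (1.27) and TOP2A (0.51), and 0 fell. Without siNT1 replicate 1, 2 S phase and 2 G2 and M phase genes passed at 24 h. In bulk RNA, fewer cells in a phase and less RNA per cell cannot be told apart, and the part of the cell cycle genes in the HMG values was not tested.

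**Figure D5:**
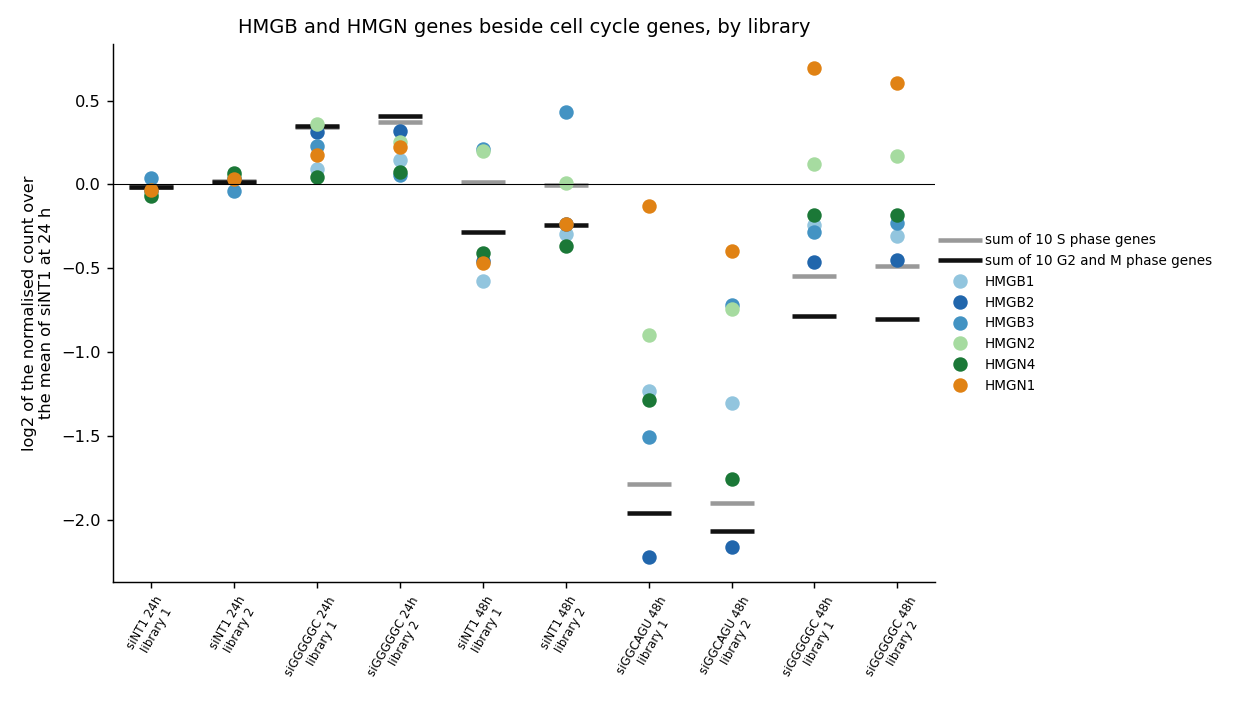
Normalised counts of HMGB1, HMGB2, HMGB3, HMGN1, HMGN2 and HMGN4 (circles) and of the summed S phase and G2 and M phase genes (dashes) in each library, as log2 of the ratio to the mean of siNT1 at 24 h (y axis). HMGB2 and both sums are lowest in the siGGCAGU libraries, and HMGN1 is highest with siGGGGGC at 48 h.

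Linker histones, which HMG proteins compete with on nucleosomes, were measured in 7 genes. With siGGCAGU 6 of 7 fell, where 24.9% of all genes did, with a median log2 fold change of -1.34 against 0.024 for all genes, H1-5 by -2.69 and H1-1 by -1.998. With siGGGGGC at 48 h 3 fell (27.5% of all genes), H1-3 (-1.36), H1-5 (-1.28) and H1-1 (-0.90), and H1-10 rose by 0.63. At 24 h 5 rose, H1-10 (1.101), H1-1 (0.64), H1-4 (0.47), H1-2 (0.40) and H1-3 (0.30). The number of genes of the list that passed at 24 h dropped from 6 to 2 without siNT1 replicate 1 and to 3 without any other library of that time. The summed level of the list was 43523 and 47060 normalised counts with siNT1 at 48 h, 17443 and 14256 with siGGCAGU and 39008 and 37958 with siGGGGGC.

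Of 25 other genes with an HMG box, 20 were tested. With siGGGGGC at 24 h 2 rose, TFAM (0.58), which packages mitochondrial DNA, and HMG20B (0.42), and HMGXB3 fell by -0.31. Without siNT1 replicate 1 or 2 or siGGGGGC replicate 1 of that time, 1 of these 3 passed. At 48 h 3 rose, TCF7 (0.97), BBX (0.73) and TFAM (0.66), and 6 fell, among them SOX12 (-1.68), UBTF, a factor of ribosomal RNA transcription (-1.32), and SMARCE1 (-0.48), where 27.8% of all genes rose and 27.5% fell. With siGGCAGU BBX rose by 0.84 and 6 fell, among them UBTF (-0.77) and SSRP1 (-0.72), a subunit of the histone chaperone FACT. The medians of the list were 0.12, -0.068 and -0.11 on the log2 scale, and those of all genes 0.0035, -0.011 and 0.024.

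Genes tied to single HMG proteins were counted in the same way, against 27.8% of all genes that rose and 24.9% that fell with siGGCAGU, 27.8% and 27.5% with siGGGGGC at 48 h, and 10.6% and 8.32% at 24 h. Of 7 partners of HMGB1 in the SET complex and its export, 6 were tested, and with siGGCAGU 4 fell, ANP32A by -1.77, ANP32B by -1.36, the export receptor XPO1 by -0.54 and SET by -0.33. With siGGGGGC at 48 h 5 fell, APEX1 by -2.59, ANP32A by -1.31, ANP32B by -1.07, XPO1 by -0.49 and NME1 by -0.40, and SET rose by 0.40, and at 24 h APEX1 fell by -1.38. Without siGGGGGC replicate 2 the 24 h count was 2. APEX1, a DNA repair enzyme, like HMGA1, was picked by the study at 24 h. Of 10 genes of the let-7 and HMGA2 axis 8 were tested, and LIN28A and LIN28B had too few counts. With siGGCAGU 1 rose (TUT7, 0.26) and 2 fell (TUT4, -0.47, and DICER1, -0.41), with siGGGGGC at 48 h 4 rose, ARID3B (2.55), TUT7 (0.42), TUT4 (0.35) and IGF2BP2 (0.32), and at 24 h TUT7 fell by -0.37, a call that was lost without any 1 library of that time. DICER1 makes mature microRNAs, and TUT4 and TUT7 add uridines to let-7 precursors. Of 10 receptors and extracellular partners of HMGB1, 4 were tested, each with a mean below 100 normalised counts. With siGGGGGC CD24 and THBD fell at 24 h (-1.50 and -1.39) and at 48 h (-2.21 and -1.42), CXCR4 rose at 48 h (1.84), and with siGGCAGU CD24 rose (0.62). Of the list genes named, those with a mean below 100 normalised counts, and any beyond the 2 lowest and 2 highest of a list, were added after their values were seen.

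Processed pseudogenes, copies of an mRNA inserted elsewhere in the genome, are frequent in this family, and reads that match both copies may be lost or split. The files listed 48 pseudogenes named after HMGB1, whose summed counts were 32.0% to 39.5% of the HMGB1 count in a library. For HMGN2 there were 38 with 30.4% to 35.3%, for HMGN1 32 with 6.91% to 9.56%, for HMGB3 29 with 1.71% to 3.29%, and for HMGA1 8 with 1.81% to 2.81%. HMGA2, HMGN4 and HMGN5 had 0. Adding the pseudogene counts to their parent gene left all 60 values on the same side of the threshold with the same direction. Reads lost as ambiguous between copies are in neither count, so the levels of HMGB1, HMGN1 and HMGN2 are uncertain by an amount not measured here.

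The genes with the most similar patterns were sought for the genes past the fold threshold against siNT1, as the lowest root mean square difference of the 5 group means of log2 CPM, counts scaled to library size, each centred on its mean, among 5598 genes. For HMGA1 they were KIF1C (0.112), DCBLD1 (0.147) and SF3A1 (0.158). For HMGB2 they were DSCC1 (0.0445), ESCO2 (0.0529) and CDK1 (0.113), and for HMGB3 NUP62 (0.0792), PSIP1 (0.0944) and MSH6 (0.0976). For HMGN4 they were FABP5P7 (0.0438), GPD2 (0.0634) and ABRACL (0.0758), and for HMGN5 GPATCH4 (0.116), WDR6 (0.141) and ATF7IP (0.174). The closest gene was thus farther from HMGA1 (0.112) and HMGN5 (0.116) than from HMGB2 (0.0445) and HMGN4 (0.0438). HMGN5 has low counts, below those of every gene it was compared with, so its distances are less precise. The likeness rests on 5 group means and is a description.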

How the data were processed

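Total RNA of HeyA8 cells was depleted of ribosomal RNA and sequenced as paired ends. The authors trimmed reads with Trimmomatic and counted them over exons per Ensembl gene with htseq. The study's methods name TopHat or STAR as aligner, and the submitters' processing notes list TopHat, Bowtie2, HTSeq and hg38. The strand setting is not given in the sources used here. The deposited files of each library hold raw counts per gene, with no normalization. The authors' 4 tables of comparisons hold fold changes and p-values and were not used.

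Genes were filtered with filterByExpr, which kept 16905, and compared by edgeR 4.0.16 (R 4.3.3), whose quasi-likelihood F test was used with TMM normalization and Benjamini-Hochberg adjustment, in 1 fit of the 10 libraries with the 5 groups as a factor and 5 residual degrees of freedom. The standard error is the size of the log2 fold change divided by the square root of F. It rests on a spread that the 5 groups share, so it does not follow the duplicates of 1 group. The SD of the log2 difference between duplicates, over 9979 genes, was 0.147 for siNT1 and 0.179 for siGGGGGC at 24 h. At 48 h it was 0.234 for siNT1, 0.277 for siGGCAGU and 0.161 for siGGGGGC. The fit was tested on simulated data. Depth limits the precision of HMGN5 most. The alternatives were DESeq2 1.42.0, RLE size factors, other filters, fits of fewer libraries, a replicate block and pseudogene counts added. The 10 genes and the lists were chosen with earlier results of these data known. The rule named all 10 genes, in each list the 2 lowest and 2 highest log2 fold changes among genes that passed with a mean of at least 100 normalised counts, and for likeness the 3 closest genes with a mean of at least 500. Transcripts and 3′ UTRs are those of GENCODE v44, and microRNAs those of RefSeq. Some genes of the lists are not reported here by name.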

Additional observations from a re-analysis of the deposited data

Results flagged for a closer look

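The siGGGGGC effect, its log2 fold change against siNT1, differed between 48 h and 24 h in 6 of the 10 genes by the interaction term of the edgeR fit. Of all 16905 genes 13.4% were higher and 15.2% lower by this term. For HMGA1 the effect at 48 h minus that at 24 h was -0.82, with effects of -2.14 and -1.32. For HMGA2 it was -0.69, from 0.80 at 24 h to 0.11 at 48 h. HMGB2 had -0.43 and HMGB3 -0.73, each with a positive effect at 24 h and a negative one at 48 h. HMGN1 had 0.80, from 0.20 to 1.00. HMGN5 had -1.80, from -0.21 to -2.001, with siNT1 counts that were themselves higher at 48 h. The HMGB2 difference no longer passed in 5 of the 8 fits that left out a library, the HMGB3 difference in 6 of 8 and with the Wald test of DESeq2 (-0.72), and the HMGN5 difference without siGGGGGC replicate 1 at 24 h (-1.61). Those of HMGA1, HMGA2 and HMGN1 passed in all 8. Since the genes were listed with results of these libraries known, these differences are descriptions.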

How the results depend on the processing

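With siGGCAGU 8 of the 10 genes passed in every fit that left out a library, and with siGGGGGC against siGGCAGU 8 to 9. Of the 60 values, 59 kept their direction and side of the threshold with RLE size factors or without RN7SL2 and SNORD3A, 58 with DESeq2, 57 with the libraries of the comparison alone, 60 with a mean count of at least 50, and 50 with no filter on low counts, which moved the median of all tested genes by -0.12 for siGGGGGC against siNT1 at 48 h, by -0.13 for the difference of its effects and by 0.084 for siNT1 between times. With no filter, values near 0 changed sign: HMGA2 (-0.011) and HMGN2 (-0.082) with siGGGGGC at 48 h, HMGB1 for the difference of effects (-0.099) and HMGA2 for siNT1 between times (0.050). Leaving out 1 library, the number of the 10 genes that passed was 2 in all 4 fits for siGGGGGC at 24 h, 0 to 5 for siNT1 between times, and 3 to 6 for the difference of effects. Signs changed among values that had not passed: HMGN3 from -0.11 to 0.017 and HMGN4 from -0.0071 to 0.14 with siGGGGGC at 24 h, HMGN2 from -0.059 to 0.13 and HMGN3 from -0.28 to 0.062 with siGGGGGC at 48 h, HMGN1 from -0.053 to 0.22 and HMGN3 from -0.18 to 0.16 with siGGCAGU, HMGB1 from -0.12 to 0.17 and HMGN3 from -0.23 to 0.11 for the difference of effects, and HMGA2 from -0.063 to 0.011 for siNT1 between times. The cause was not tested.

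For the lists, an alternative chosen after seeing the data, leaving out 1 library gave 1 to 2 genes in place of 3 for other HMG-box genes, 2 to 3 for linker histones, 0 in place of 1 for the let-7 axis, 1 to 2 for the SET complex, 2 to 4 in place of 5 for S phase and 2 to 6 for G2 and M phase genes, all with siGGGGGC at 24 h. At 48 h it gave 2 to 4 for the let-7 axis with siGGGGGC and 0 to 1 for HMGB1 receptors with siGGCAGU, which were also 0 with DESeq2. With no filter the let-7 axis had 0 at 24 h and 2 at 48 h with siGGGGGC, and the SET complex 2 at 24 h. With the libraries of the comparison alone, other HMG-box genes had 5 and the SET complex 2 at 24 h.

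Samples with the same replicate number did not deviate together, with correlations of -0.089 to 0.027, and the main fit did not pair them. Such correlations cannot exclude that these samples shared a plate, which the labels do not state. With the replicate number as a block 3 of 4 genes passed for siGGGGGC at 24 h (HMGN2, 0.31, did not) and 4 of 6 for siNT1 between times (HMGA1, 0.28, and HMGN1, -0.35, did not), and the calls of the other comparisons were the same.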
